A study of Mus musculus with 4 samples.

Results

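Epithelial to mesenchymal transition is the change in which an epithelial cell gives up its junctions and takes on the cytoskeleton and matrix production of a mesenchymal cell. The zinc finger repressors ZEB1 and ZEB2 bind E-box sequences in epithelial genes, E-cadherin among them, and shut them down. ESRP1 and ESRP2 are RNA-binding proteins that keep epithelial splice forms in place, and ZEB1 is known to repress ESRP1. Vimentin, fibronectin, smooth muscle actin, transgelin and the lysyl oxidases are the usual markers of the mesenchymal end, and in the lung they are made mainly by fibroblasts, smooth muscle, pericytes and endothelium.

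The 10 genes described here are Vim, Fn1, Zeb1, Zeb2, Acta2, Tagln, Lox, Loxl2, Esrp1 and Esrp2. They were taken by gene symbol from a count table of 25759 symbols, and all 10 were in it. The libraries were made from type II alveolar epithelial cells, which make pulmonary surfactant, of C57BL/6 mice aged 14 weeks. There were 2 libraries from mice labelled Sftpc-mTOR transgenic, described as conditional for active mTOR (mTOR Tg), and 2 from wild-type mice (WT). The genotype name refers to Sftpc, the surfactant protein C gene of type II cells. The sources used here do not give the promoter construct, any inducing agent, whether WT mice carried part of the transgene, or whether a library came from 1 mouse or a pool. P-values therefore measure the spread between these libraries, which may be technical. The comparison asks which transcripts differ in isolates of type II cells when mTOR is active.

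Library totals were 21972124 and 20273396 counts in mTOR Tg replicates 1 and 2, and 18146693 and 19018785 in WT replicates 1 and 2. At this depth 3 counts equal 0.137 to 0.165 counts per 1e6 counts of the library (CPM). All CPM values below, sums over lists included, are normalised by TMM. mTOR Tg replicate 1 stood apart. Between it and mTOR Tg replicate 2, 1949 genes lay over 2-fold apart, against 264 between the WT replicates. Transcripts of over 4498 bases lay at a median of -0.54 (log2) in that library relative to the mean of the other 3. Summed type II cell markers were 131956 and 158592 CPM in mTOR Tg and 153719 and 126992 CPM in WT, with none of the 14 markers in the table at 0. Summed club cell markers, of the airway secretory cell, were 191050 and 62488 CPM in mTOR Tg and 92829 and 96716 CPM in WT. The part of airway cells in the values of the epithelial genes below was not tested. Counts of Ptprc, which marks leukocytes, were 0 and 3 in mTOR Tg and 0 and 3 in WT, and 5 of 21 leukocyte markers were at 0 in every library. The 3 leukocyte markers that were tested had no adjusted call. Of these Cd79b had 255 and 258 counts in mTOR Tg and 194 and 177 in WT, Csf1r had 162 and 71 in mTOR Tg and 59 and 81 in WT, and Cd68 had 70 and 77 in mTOR Tg and 85 and 50 in WT.

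The epithelial splicing factors were well expressed in every library and the mesenchymal genes were rare. Levels between genes were compared per length, as normalised counts per kilobase of the principal transcript and per 1e6 counts (RPKM). Averaged over the 4 libraries, Esrp2 was at 36.1 RPKM and Esrp1 at 20.6 RPKM. These levels exceeded those of 87.4% and 77.4% of the 13137 tested genes with a known length, whose median was 7.10 RPKM. Vim followed at 2.76 RPKM, Tagln at 2.06, Acta2 at 1.62 and Fn1 at 0.809. Zeb1 was at 0.349 RPKM, Lox at 0.256, Loxl2 at 0.129 and Zeb2 at 0.0484, so that Zeb2 exceeded only 0.0609% of tested genes. The filter on low counts removes rare genes, so this rank is among the genes that passed it.

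**Figure D1:**
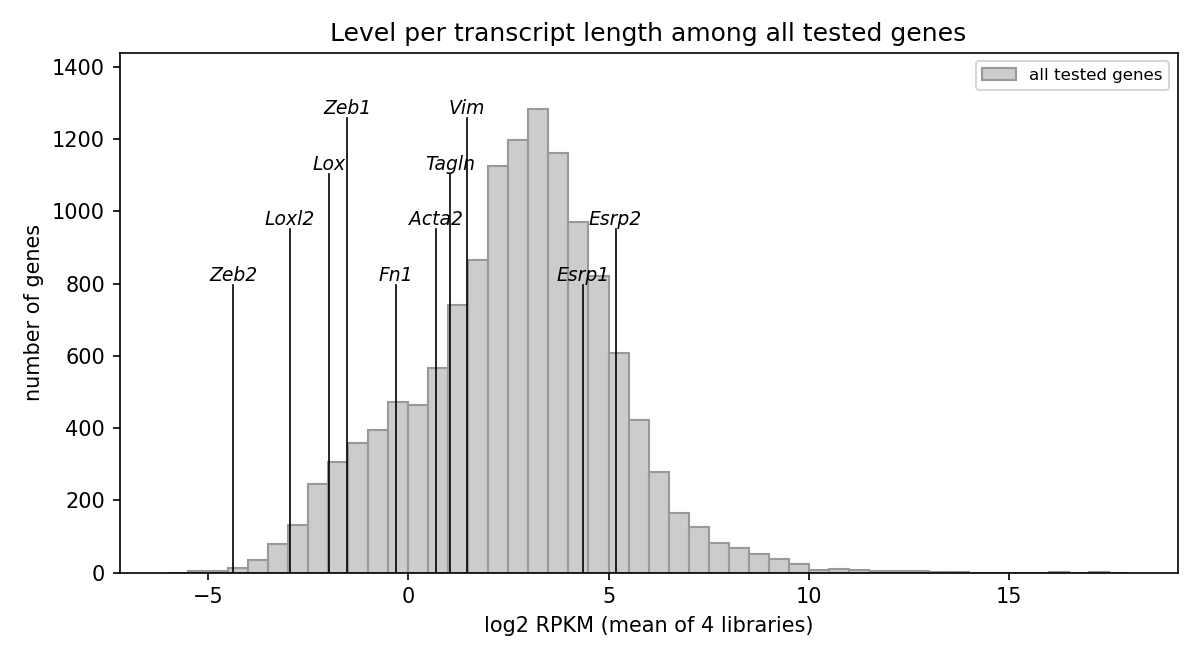
Histogram of the mean level per transcript length of all tested genes (log2 RPKM, mean of 4 libraries, number of genes on the vertical axis), with a vertical line at each of the 10 genes. Esrp1 and Esrp2 lie right of the median of 7.10 RPKM and the other 8 genes lie left of it.

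In that order, the per-length ranges over libraries of Esrp2 and Esrp1 did not overlap with each other or with the next gene. Those of Vim, Tagln, Acta2 and Fn1 overlapped from each gene to the next, as did those of Zeb1, Lox and Loxl2. The ranges of Fn1 and Zeb1 were apart, and so were those of Loxl2 and Zeb2. Per length, Esrp1 was 89.9 and 65.4 times as abundant as Zeb1 in mTOR Tg, and 51.9 and 48.7 times in WT. For Esrp2 over Zeb1 the ratios were 149 and 117 in mTOR Tg and 91.4 and 86.7 in WT. Both ratios were higher in each mTOR Tg library than in either WT library. They share the denominator Zeb1, which had 23 to 53 counts a library, so they are not separate results. The Zeb1 transcript is in the longest quartile, which lay low in mTOR Tg replicate 1. No share of all genes was computed for such ratios. The ratio of Esrp2 to Esrp1 stayed within 1.66 to 1.78 over the 4 libraries.

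None of the 10 genes passed the test between genotypes. The edgeR quasi-likelihood test called 0 of 10 at an adjusted p under 0.05, where it called 0% of the 13306 genes tested. At an unadjusted p under 0.05 it held 0 of the 10 and 2.46% of all tested genes. limma-voom and DESeq2 also called 0 of the 10, while DESeq2 called 12 genes in all (0.0902%). All 10 genes passed the filter on low counts. Their median log2 fold change was -0.21, with 7 negative and 3 positive, beside a median of 0.01 over all tested genes, of which 49.1% were negative. The normalised CPM of both mTOR Tg libraries lay outside the WT range in 7 of the 10 genes, where 34.6% of all tested genes did so. Of these 7, Zeb1, Acta2, Tagln, Esrp1 and Esrp2 were lower in both mTOR Tg libraries (17.0% of all tested genes) and Lox and Loxl2 were higher in both (17.6%). Scaled by library totals only, Esrp2 no longer lay outside the WT range, which left 6. With the length and GC correction Fn1 also lay above the WT range, which made 8, where 35.2% of all tested genes lay outside it. Taken alone, mTOR Tg replicate 2 lay outside the WT range in 9 of the 10 genes (70.6% of all tested genes) and replicate 1 in 8 (88.2%), settings chosen after the data had been seen.

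**Figure D2:**
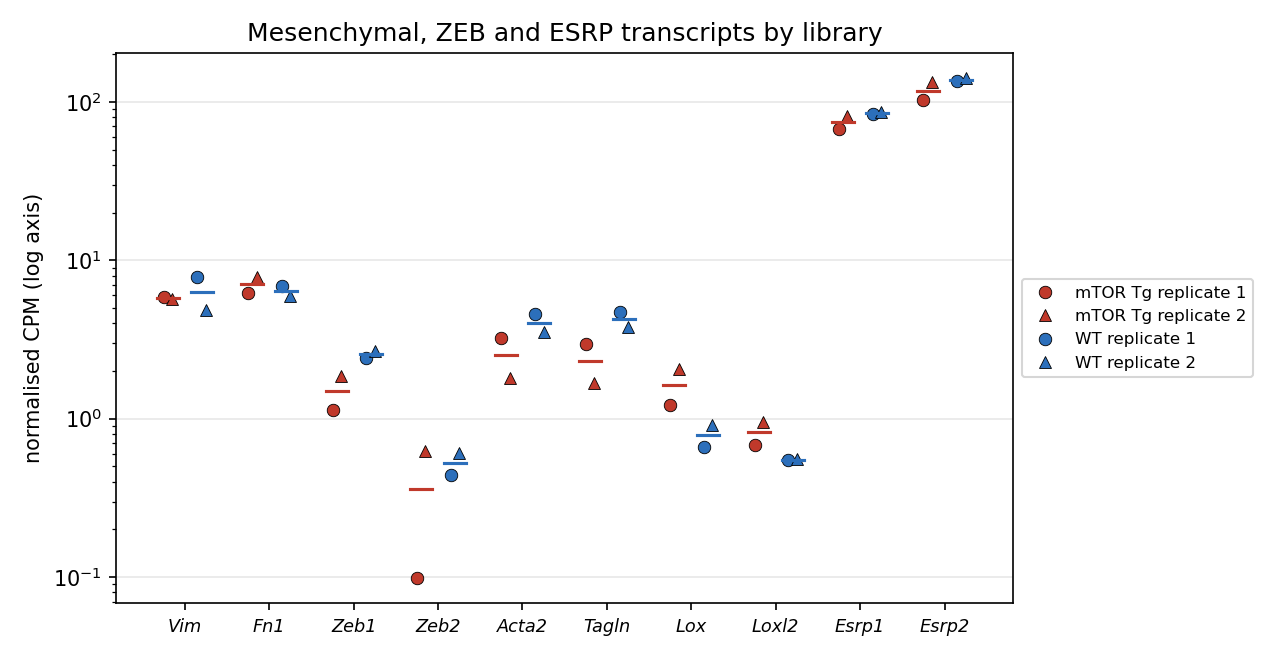
Normalised CPM on a log axis for each gene, with mTOR Tg (red) left of WT (blue), circles for replicate 1, triangles for replicate 2 and a bar at each mean of 2 libraries. Lox and Loxl2 lie higher in both mTOR Tg libraries than in both WT libraries, Zeb1, Acta2, Tagln, Esrp1 and Esrp2 lie lower, and Vim, Fn1 and Zeb2 overlap.

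Esrp1, which promotes epithelial exons in transcripts such as Fgfr2 and Cd44, was at 67.6 and 81.3 normalised CPM in mTOR Tg replicates 1 and 2, against 83.5 and 86.8 CPM in WT replicates 1 and 2. Its paralogue Esrp2, with an overlapping role, was at 102 and 133 CPM in mTOR Tg, against 135 and 142 CPM in WT. For both genes mTOR Tg replicate 1 was the low library and replicate 2 lay just under the WT pair. The log2 fold change of Esrp1 was -0.19 (SE 0.20, edgeR adjusted p = 0.860), with a 95% interval that ran as a fold from 0.620 to 1.23. That of Esrp2 was -0.23 (SE 0.21, edgeR adjusted p = 0.860), with an interval from 0.589 to 1.23. Without mTOR Tg replicate 1 the log2 fold changes were -0.07 and -0.06. Without mTOR Tg replicate 2 they were -0.33 and -0.43, past the threshold in edgeR at adjusted p = 0.0240 and 0.00437, in a fit that called 47.1% of all tested genes. A fit that leaves a library out has 1 library in a group, which is assumed to vary like the other group, so such a call holds no replication. The length and GC correction brought Esrp1 to -0.06 and Esrp2 to -0.30. Esrp1 lies on chromosome 4 from 11331933 to 11386783 and Esrp2 on chromosome 8 from 106130319 to 106136974 (GRCm38, the assembly called mm10). Exons of Esrp2 share 219 bases, 5.05% of its exonic length, with Nfatc3 on the opposite strand. The sources used here do not give the strand setting of the counting, so reads from that stretch cannot be assigned to either gene.

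Genes whose exons the ESRP proteins are known to regulate were described from a list of 14, all tested. None was called by edgeR at the adjusted threshold or at an unadjusted p under 0.05. Their median log2 fold change was -0.16, with 3 positive and 11 negative. The median lay at -0.33 in the first mTOR Tg replicate and 0.02 in the second relative to WT. Fgfr2, the fibroblast growth factor receptor that type II cells depend on, was at 282 and 488 CPM in mTOR Tg, against 650 and 600 CPM in WT. Both mTOR Tg libraries lay below both WT libraries, at -0.70 as log2 fold change (SE 0.31, edgeR adjusted p = 0.860). The lipolysis-stimulated lipoprotein receptor gene Lsr had the next smallest p, at 158 and 115 CPM in mTOR Tg and 110 and 107 CPM in WT. Cd44, the hyaluronan receptor, was at 72.5 and 95.8 CPM in mTOR Tg and 97.1 and 101 CPM in WT. Counts per gene symbol do not distinguish splice forms, so exon use was not analysed here. Other splicing regulators (9 of 10 tested) had a log2 fold change median of -0.17, at -0.51 in the first mTOR Tg replicate and 0.01 in the second. Of these, Mbnl2, a muscleblind splicing factor, was at 55.2 and 146 CPM in mTOR Tg and 151 and 151 CPM in WT. Srsf1, an SR protein, was at 102 and 139 CPM in mTOR Tg and 146 and 144 CPM in WT.

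The ZEB repressors were rare, Zeb2 more so than Zeb1. Zeb1 had 23 and 39 counts in mTOR Tg replicates 1 and 2, against 44 and 53 in WT replicates 1 and 2. Its normalised level was 1.13 and 1.87 CPM in mTOR Tg and 2.42 and 2.68 CPM in WT, so that both mTOR Tg libraries lay below both WT libraries. On the log2 scale the fold change was -0.76 (SE 0.38, 95% interval -1.71 to 0.18, edgeR adjusted p = 0.860). It was -0.45 leaving out mTOR Tg replicate 1 and -1.17 leaving out the other, where edgeR gave an adjusted p = 0.0225 with mTOR Tg replicate 1 alone in its group and 47.1% of all tested genes called. The Zeb1 transcript of 5801 bases belongs to the longest quartile, which lay low in mTOR Tg replicate 1, and with the length and GC correction its log2 fold change was -0.50. Zeb1 lies on chromosome 18 from 5591860 to 5775467.

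Zeb2 had 2 and 13 counts in mTOR Tg, against 8 and 12 counts in WT. The exact 95% Poisson interval of the 2 counts was 0.242 to 7.22, and this and later such intervals cover counting error only, since reads that carry no molecular identifier may be copies of 1 molecule. At 0.0981 and 0.622 CPM in mTOR Tg and 0.439 and 0.606 CPM in WT, mTOR Tg replicate 1 was the low library and the groups overlapped. The log2 fold change was -0.53 (SE 0.85, 95% interval -2.66 to 1.60, edgeR adjusted p = 0.876), and it was 0.24 leaving out mTOR Tg replicate 1 and -2.35 leaving out the other. limma-voom gave -0.94. Zeb2 lies on chromosome 2 from 44983632 to 45117395. ZEB1 and ZEB2 are also made by endothelial and mural cells. Summed endothelial markers were 124 and 127 CPM in mTOR Tg and 188 and 190.5 CPM in WT. Kdr was the largest part of that sum, at 51.9 and 35.0 CPM in mTOR Tg and 79.3 and 84.4 CPM in WT. None of the 18 markers was at 0 in every library, and 17 of the 18 had a negative log2 fold change. The part of endothelial and mural cells in the ZEB counts was not tested. In bulk RNA, fewer cells of a type and less RNA per cell cannot be told apart.

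The corepressors that ZEB proteins recruit, all 9 of them tested, had no call and a log2 median of -0.07. Of these, the deacetylase gene Sirt1 was at 14.3 and 25.9 CPM in mTOR Tg and 26.1 and 28.4 CPM in WT, and the CoREST family gene Rcor3 at 11.9 and 19.5 CPM in mTOR Tg and 20.1 and 19.9 CPM in WT. Epithelial transcription factors that oppose ZEB (9 of 9 tested) had no call and a median of -0.16, with 7 of 9 negative. Grhl2, a grainyhead factor that represses Zeb1, was at 54.5 and 58.0 CPM in mTOR Tg and 68.3 and 72.9 CPM in WT. Klf4 was at 41.8 and 33.6 CPM in mTOR Tg and 49.0 and 58.6 CPM in WT, and Klf5 at 81.5 and 81.2 CPM in mTOR Tg and 100.1 and 112 CPM in WT. All 3 were lower in both mTOR Tg libraries than in both WT libraries. In the whole list 4 of 9 were, beside 17.0% of all tested genes. Klf4 and Klf5 are named for having the smallest p in the list. Ovol1 was at 10.3 and 5.84 CPM in mTOR Tg and 8.95 and 8.79 CPM in WT, and its relative Ovol2 at 13.4 and 8.14 CPM in mTOR Tg and 8.24 and 9.05 CPM in WT.

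Epithelial genes that ZEB represses were described from a list of 20, all tested, and edgeR called none at the adjusted threshold or at an unadjusted p under 0.05. The median log2 fold change was 0.16, at 0.33 in the first mTOR Tg replicate and -0.02 in the second. E-cadherin, Cdh1, was at 793 and 960 CPM in mTOR Tg and 932 and 934 CPM in WT, so the mTOR Tg libraries lay on either side of WT. The claudin gene Cldn7 was at 214 and 109 CPM in mTOR Tg and 111 and 119 CPM in WT, and the polarity gene Crb3 at 86.5 and 72.3 CPM in mTOR Tg and 69.8 and 62.4 CPM in WT. The other transcription factors of mesenchymal transition (9 of 16 tested) had a median of -0.24 and no adjusted call. Snai1 had 7 and 4 counts in mTOR Tg and 4 and 6 in WT, Snai2 had 1 and 2 in mTOR Tg and 0 and 4 in WT, and Twist1 had 0 and 0 in mTOR Tg and 0 and 1 in WT. Tcf4, a basic helix-loop-helix factor, was at 11.0 and 15.5 CPM in mTOR Tg and 22.5 and 20.9 CPM in WT, which is -0.71 as log2 fold change (SE 0.25). The forkhead gene Foxc1 was at 7.61 and 4.64 CPM in mTOR Tg and 3.18 and 3.64 CPM in WT, which is 0.84 as log2 fold change (SE 0.34). Both had an unadjusted p under 0.05 and an edgeR adjusted p = 0.860.

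Vimentin and fibronectin, the markers used most often for the mesenchymal state, did not separate the genotypes under the main scaling. Vim, an intermediate filament of mesenchymal cells, had 119 and 119 counts in mTOR Tg and 143 and 96 counts in WT. Its normalised level of 5.84 and 5.70 CPM in mTOR Tg lay between the WT values of 7.85 and 4.85 CPM. The log2 fold change was -0.14 (SE 0.31, 95% interval -0.92 to 0.64, edgeR adjusted p = 0.909), and it was 0.25 without WT replicate 1. The WT replicates lay 0.69 apart on the log2 scale, more than the fold change. Fn1, the matrix glycoprotein, was at 6.23 and 7.85 CPM in mTOR Tg and 6.92 and 5.91 CPM in WT, and the groups overlapped. Its log2 fold change was 0.13 (SE 0.26, 95% interval -0.52 to 0.79, edgeR adjusted p = 0.893), with -0.04 without mTOR Tg replicate 2, 0.29 leaving out mTOR Tg replicate 1 and 0.35 with the length and GC correction. With that correction Fn1 lay higher in both mTOR Tg libraries than in both WT libraries. The Fn1 transcript of 8315 bases is in the longest quartile, which lay low in mTOR Tg replicate 1. Vim lies on chromosome 2 from 13573927 to 13582826 and Fn1 on chromosome 1 from 71585520 to 71653200.

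Receptors and modifiers of fibronectin were described from 12 genes, all tested, with no adjusted call and a log2 median of 0.14. Plaur, the urokinase receptor, was at 4.42 and 3.35 CPM in mTOR Tg and 1.21 and 1.06 CPM in WT, both mTOR Tg libraries above both WT libraries. It differed by 1.77 on the log2 scale (SE 0.34), with an unadjusted p under 0.05 and an edgeR adjusted p = 0.860. The transglutaminase gene Tgm2 was at 84.9 and 64.3 CPM in mTOR Tg and 56.6 and 58.5 CPM in WT. Other intermediate filament and plakin genes (11 of 11 tested) had a median of 0.19, at 0.49 in the first mTOR Tg replicate and -0.02 in the second. Nestin, Nes, a filament protein of progenitor cells, was at 1.72 and 1.48 CPM in mTOR Tg and 0.824 and 0.960 CPM in WT. The keratin gene Krt7 was at 272 and 125 CPM in mTOR Tg and 108 and 126 CPM in WT. Further mesenchymal markers (13 of 20 tested) had no call and a median of 0.06, at -0.27 in the first mTOR Tg replicate and 0.29 in the second. Of these, the proteoglycan gene Vcan was at 0.785 and 0.431 CPM in mTOR Tg and 0.933 and 1.21 CPM in WT. The matricellular gene Sparc was at 282 and 297 CPM in mTOR Tg and 250 and 222 CPM in WT. N-cadherin, Cdh2, had 4 and 10 counts in mTOR Tg and 4 and 9 in WT, too few to test.

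**Figure D3:**
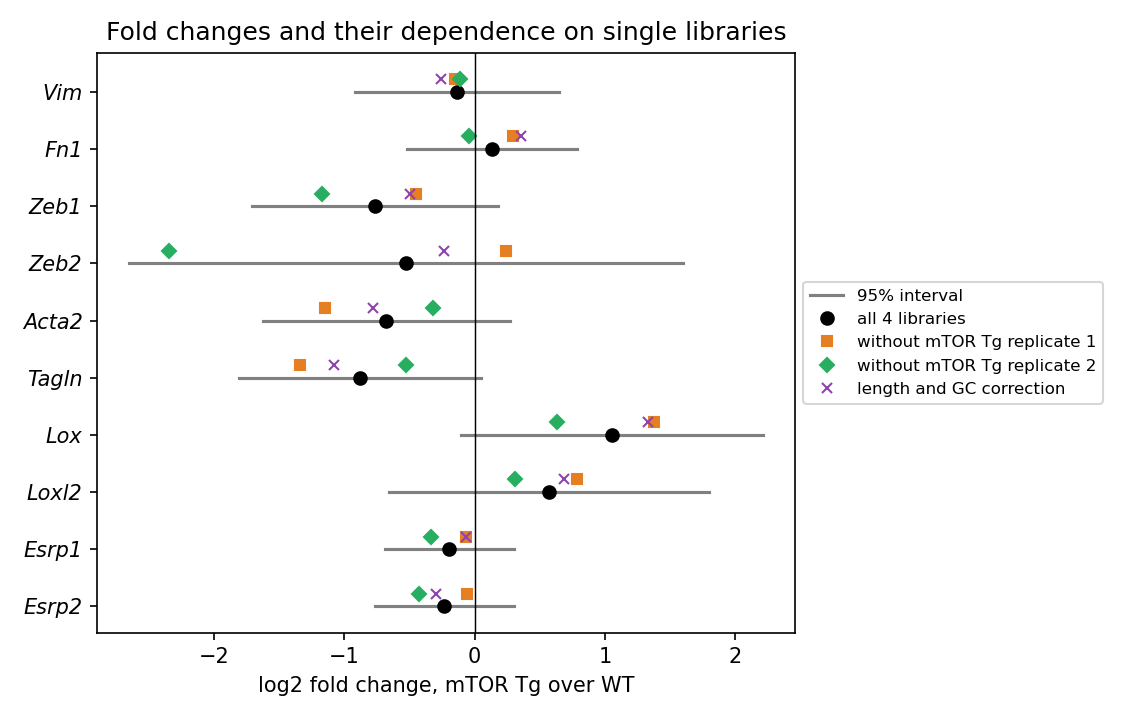
Log2 fold change of mTOR Tg over WT for each gene (black points, with 95% intervals as grey lines), with the values without each mTOR Tg library and with the length and GC correction as coloured marks above. Every interval includes 0, Lox has the highest point at 1.06, and the marks of Zeb2 run from -2.35 to 0.24.

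The contractile genes Acta2 and Tagln had lower values in both mTOR Tg libraries. Acta2, alpha smooth muscle actin, had 66 and 38 counts in mTOR Tg and 83 and 70 in WT, which is 3.24 and 1.82 normalised CPM in mTOR Tg against 4.56 and 3.54 CPM in WT. Tagln, the actin-binding protein transgelin of smooth muscle, had 60 and 35 counts in mTOR Tg and 86 and 75 in WT, or 2.94 and 1.68 CPM in mTOR Tg against 4.72 and 3.79 CPM in WT. In both genes mTOR Tg replicate 2 was the lowest library and the genotypes did not overlap. The log2 fold change was -0.68 for Acta2 (SE 0.38, 95% interval -1.63 to 0.27) and -0.88 for Tagln (SE 0.37, 95% interval -1.81 to 0.05), both with an edgeR adjusted p = 0.860. It was -1.15 for Acta2 and -1.34 for Tagln without mTOR Tg replicate 1, and -0.32 and -0.53 without mTOR Tg replicate 2. The first of these fits gave Tagln an edgeR adjusted p = 0.0344, with mTOR Tg replicate 2 alone in its group and 2.50% of all tested genes called. With the length and GC correction the values were -0.78 for Acta2 and -1.08 for Tagln. Per length, Tagln was 1.16 and 1.18 times as abundant as Acta2 in mTOR Tg and 1.32 and 1.37 times in WT.

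Acta2 and Tagln are both textbook targets of serum response factor (SRF), which binds CArG boxes. The promoter of Acta2 is shown because Acta2, like Tagln, had lower values in both mTOR Tg libraries. It is the 1 promoter printed of the 3 members matched in the RefSeq promoter table (build GRCm38.p6). The stretch is chr19:34255374-34255623, minus strand, the 250 bases before a start that RefSeq gives, with CArG-like boxes in capitals. The GENCODE M21 annotation used for lengths places Acta2 from 34241090 to 34255590. Both boxes lie inside that span, so their distances hold for the RefSeq start only.

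Acta2: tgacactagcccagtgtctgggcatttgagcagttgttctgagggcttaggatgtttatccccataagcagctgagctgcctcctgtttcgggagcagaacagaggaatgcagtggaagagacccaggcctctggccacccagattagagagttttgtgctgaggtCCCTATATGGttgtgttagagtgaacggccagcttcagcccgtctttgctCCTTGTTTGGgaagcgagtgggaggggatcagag

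A CArG-like box was taken as CC and GG around 6 bases of which at most 1 was not A or T, a pattern that reads the same on both strands. The boxes begin 84 and 34 bases before that start. At least 1 such box was found in 8.59% of 32851 promoter windows of this length, and 2 or more in 0.670%. The windows of Vim and Zeb2 held none. A match describes the letters only. Other actin cytoskeleton genes linked to SRF, Srf itself included, were described from a list of 19. Of these 18 were in the table, all tested. They had 13 of 18 log2 fold changes positive and a median of 0.14. None was called by edgeR at the adjusted threshold or at an unadjusted p under 0.05. Their median lay at 0.38 in the first mTOR Tg replicate and -0.04 in the second. Of these, the LIM protein gene Fhl2 was at 4.07 and 1.48 CPM in mTOR Tg and 1.04 and 1.57 CPM in WT. Vinculin, Vcl, was at 39.7 and 71.0 CPM in mTOR Tg and 65.7 and 81.7 CPM in WT. The list does not hold the contractile genes Myh11, Cnn1 and Actg2. These were counted with the smooth muscle and pericyte markers, of which 8 of 10 tested were negative, so the share of positive values depends on how the lists were split.

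Markers of smooth muscle and pericytes also had mostly lower values in mTOR Tg. The list held 16 genes of which 10 were tested, with 8 negative, 2 positive, no adjusted call and a median of -0.72 for the log2 fold change, at -0.49 in the first mTOR Tg replicate and -0.99 in the second. Myh11, smooth muscle myosin heavy chain, was at 1.08 and 1.29 CPM in mTOR Tg and 3.40 and 2.48 CPM in WT, which is -1.30 as log2 fold change (SE 0.36), with an unadjusted p under 0.05 and an edgeR adjusted p = 0.860. Calponin, Cnn1, was at 0.442 and 0.0958 CPM in mTOR Tg and 1.21 and 0.505 CPM in WT. The genotypes did not overlap in either gene, but Cnn1 had only 9 and 2 counts in mTOR Tg and 22 and 10 in WT. In the list 4 of the 10 tested genes were lower in both mTOR Tg libraries, beside 17.0% of all tested genes. The tropomyosin gene Tpm2, at 1.72 and 0.479 CPM in mTOR Tg and 1.15 and 0.809 CPM in WT, and Cox4i2, at 0.638 and 1.01 CPM in mTOR Tg and 1.10 and 0.455 CPM in WT, were the 2 with a positive log2 fold change. Summed over the list the level was 34.0 and 24.2 CPM in mTOR Tg and 49.3 and 43.6 CPM in WT, most of it from Notch3, and the defining pericyte genes Higd1b and Trpc6 were at 0 in every library. Without Notch3 the sum was 12.2 and 9.72 CPM in mTOR Tg and 18.6 and 12.4 CPM in WT. The part of such cells in the Acta2 and Tagln values was not tested. The related actin genes can share reads with Acta2. Of these Actg2 had 8 and 3 counts in mTOR Tg and 13 and 11 in WT, Actc1 had 15 and 4 in mTOR Tg and 17 and 15 in WT, and Acta1 had 24 and 5 in mTOR Tg and 1 and 2 in WT. Exons of Tagln share 108 bases with Pcsk7 on the opposite strand, 5.43% of its exonic length, and the antisense gene Gm48529 covers 62.4%, so with the strand setting unknown its counts are less certain. Tagln lies on chromosome 9 from 45929619 to 45936058.

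**Figure D4:**
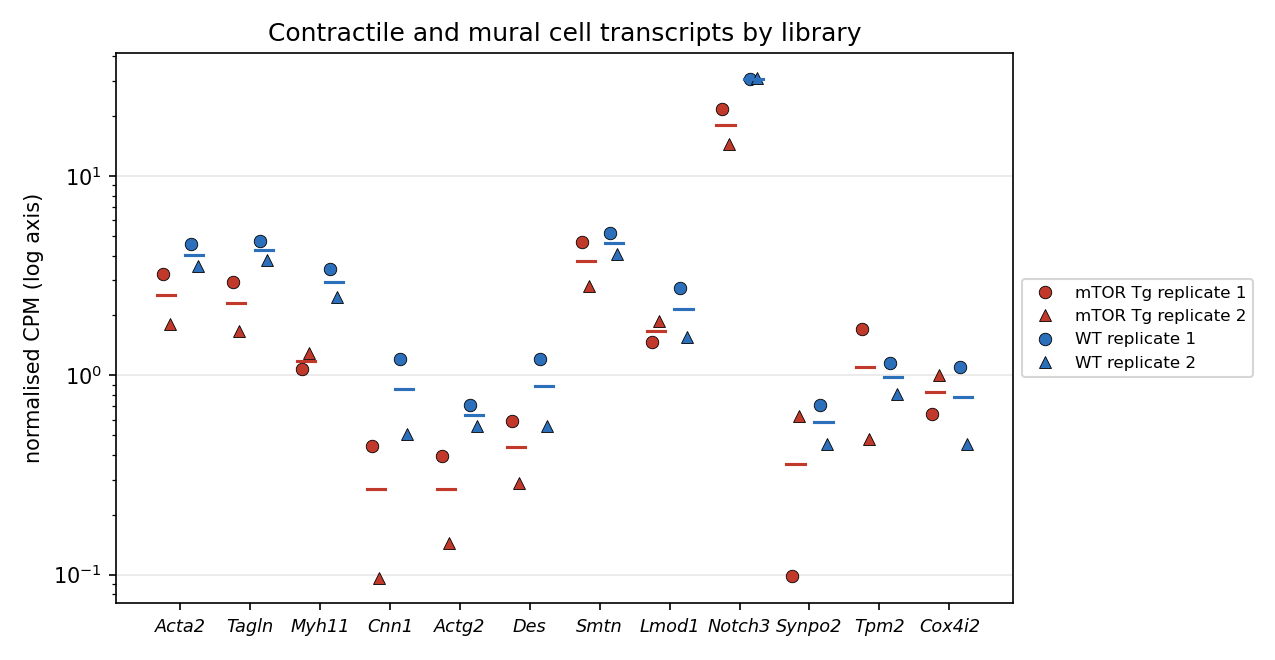
Normalised CPM on a log axis of Acta2, Tagln and all 10 tested smooth muscle and pericyte markers, with mTOR Tg (red) left of WT (blue), circles for replicate 1, triangles for replicate 2 and a bar at each mean of 2 libraries. Acta2, Tagln, Myh11, Cnn1, Actg2 and Notch3 lie below WT in both mTOR Tg libraries, while Des, Smtn, Lmod1, Synpo2, Tpm2 and Cox4i2 overlap.

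The lysyl oxidases are copper enzymes that cross-link collagen and elastin. Of the family, Lox, Loxl2 and Loxl1 had higher values in both mTOR Tg libraries, as did 17.6% of all tested genes. Lox, Loxl2 and Loxl1 did not pass the test, and Loxl3 and Loxl4 overlapped between the genotypes. Lox had 25 and 43 counts in mTOR Tg replicates 1 and 2, against 12 and 18 counts in WT replicates 1 and 2. The exact 95% Poisson intervals were 16.2 to 36.9 and 31.1 to 57.9 counts in mTOR Tg, and 6.20 to 21.0 and 10.7 to 28.4 counts in WT. Normalised, Lox was at 1.23 and 2.06 CPM in mTOR Tg and 0.659 and 0.910 CPM in WT, without overlap. As log2 fold change this is 1.06 (SE 0.46, 95% interval -0.10 to 2.22, edgeR adjusted p = 0.860), the highest of the 10 genes. It was 1.38 without mTOR Tg replicate 1, 0.63 without mTOR Tg replicate 2 and 1.33 with the length and GC correction. The Lox transcript of 4741 bases is in the longest quartile, which lay low in mTOR Tg replicate 1, and the part of transcript length in the Lox values was not tested beyond that correction. Lox lies on chromosome 18 from 52516067 to 52529867.

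Loxl2, a paralogue that can also act in the nucleus and is known to stabilise the repressor Snail, had 14 and 20 counts in mTOR Tg and 10 and 11 counts in WT. At 0.687 and 0.958 CPM in mTOR Tg and 0.549 and 0.556 CPM in WT the genotypes did not overlap, but the counts are small. The log2 fold change was 0.57 (SE 0.49, 95% interval -0.66 to 1.80, edgeR adjusted p = 0.860). It was 0.79 leaving out mTOR Tg replicate 1, 0.31 leaving out the other and 0.68 with the length and GC correction. The Loxl2 transcript of 5316 bases is in the longest quartile, which lay low in mTOR Tg replicate 1. Of the rest of the family, Loxl1 was at 2.35 and 3.35 CPM in mTOR Tg and 1.81 and 2.12 CPM in WT, also without overlap, and differed by 0.53 on the log2 scale (SE 0.34, edgeR adjusted p = 0.860). Loxl3 was at 1.57 and 1.05 CPM in mTOR Tg and 1.48 and 0.708 CPM in WT. Loxl4 had 1 and 8 counts in mTOR Tg and 3 and 1 in WT, too few to test. Summed fibroblast markers, for the cells known as the main lung source of these enzymes, were 1210 and 920 CPM in mTOR Tg and 631 and 645 CPM in WT, with none of the 18 at 0 in every library. Most of that sum was Gsn and Npnt, and without these it was 37.3 and 56.7 CPM in mTOR Tg and 50.2 and 34.8 CPM in WT. The fibroblast median lay at -0.17 in the first mTOR Tg replicate and 0.43 in the second relative to WT, and 9 of its 14 tested members were positive. The part of fibroblasts in the Lox values was not tested. Exons of Loxl2 share 301 bases, 5.57% of its exonic length, with the antisense gene Gm27177. With the strand setting unknown, reads from that stretch cannot be assigned to either gene. Loxl2 lies on chromosome 14 from 69609068 to 69695834 and Acta2 on chromosome 19 from 34241090 to 34255590.

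**Figure D5:**
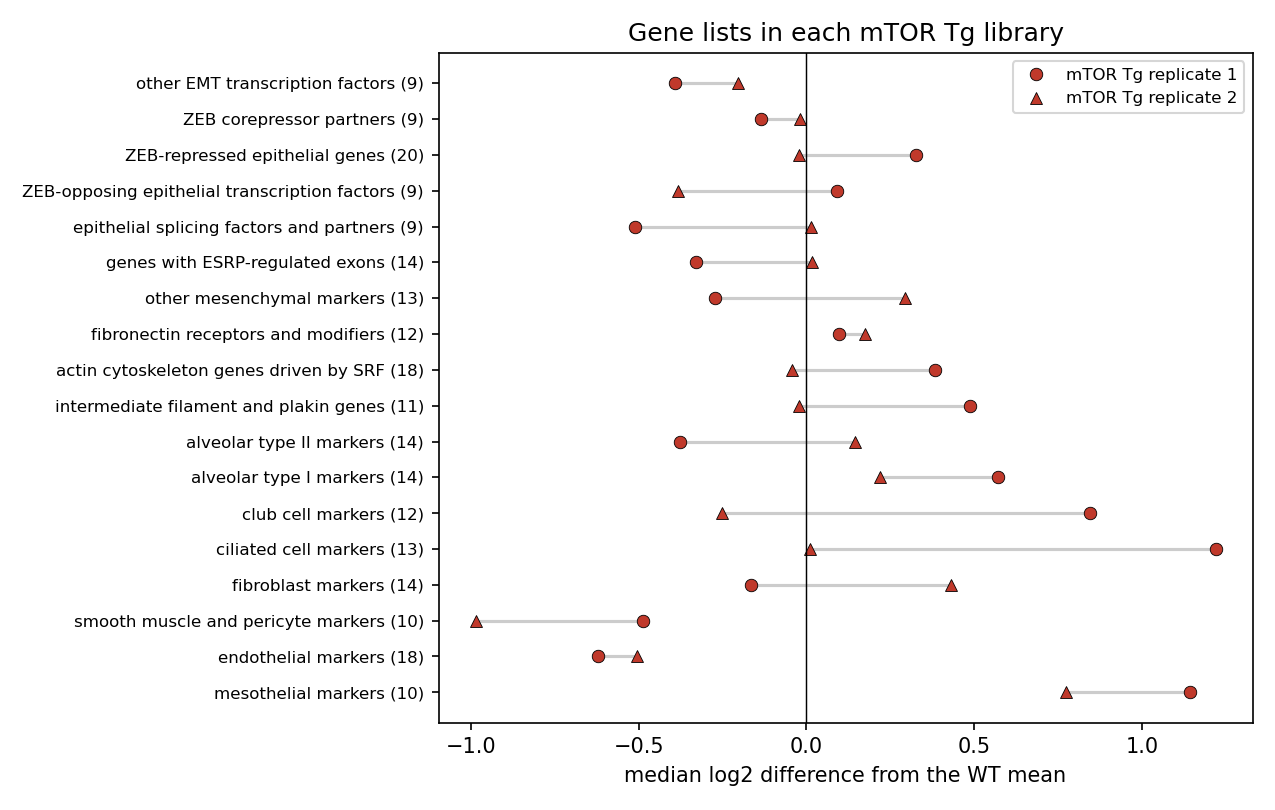
Median log2 difference from the WT mean for each gene list with 5 or more tested genes (number in parentheses), in mTOR Tg replicate 1 (circle) and replicate 2 (triangle). Smooth muscle and pericyte markers (-0.49 and -0.99) and endothelial markers (-0.62 and -0.50) lie below WT in both libraries, while ZEB-repressed epithelial genes (0.33 and -0.02) shift in replicate 1.

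Among the cell type lists, those of alveolar type I, mesothelial, ciliated and leukocyte markers had medians above the WT mean in each mTOR Tg library. The leukocyte median, of only 3 tested genes, lay at 0.355 in the first mTOR Tg replicate and 0.0977 in the second (log2). Type I markers, all 14 tested, had a median log2 fold change of 0.35 and no adjusted call. Mesothelial markers (10 of 11 tested) had a median of 0.76 and no adjusted call, with a summed level of 417 and 184 CPM in mTOR Tg and 191 and 201 CPM in WT. Most of that sum was Krt19, a keratin gene that epithelial cells also express. Without Krt19 it was 42.9 and 31.4 CPM in mTOR Tg and 15.4 and 27.2 CPM in WT, without overlap. Mesothelium is another known source of Vim, and its part in the Vim values was not tested. The median of ciliated cell markers, 13 of 13 tested, lay 1.22 above the WT mean in mTOR Tg replicate 1 and 0.01 above it in mTOR Tg replicate 2, on the log2 scale.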

How the data were processed

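The deposited values are raw read counts per gene symbol in 1 table of 4 libraries, 2 mTOR Tg and 2 WT. Per the submitters' processing notes, HISAT2, edgeR and mm10 were used. The sources used here do not give versions, the counting program, the annotation or the strand setting.

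The analysis used edgeR 4.0.16 under R 4.3.3. filterByExpr (minimum count 10) kept 13306 of 25759 symbols, TMM scaled the libraries, and the quasi-likelihood test set mTOR Tg against WT without covariates. Benjamini-Hochberg adjustment ran over all tested genes (call threshold 0.05). A standard error is the size of the log2 fold change divided by the root of its F. Intervals use its t distribution. With 2 against 2, the smallest two-sided exact permutation p of a single value is 0.333. RPKM used the APPRIS principal transcript of GENCODE M21. DESeq2 1.42.0 and limma 3.58.1 were alternatives. The correction for transcript length and GC content used natural splines per library. Code was tested on simulated data.

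The 10 genes and all lists were chosen with earlier results of these data known. From each pathway list the 2 genes with the smallest p are named, with 15 genes always given. Actin paralogues, strand-overlapping genes and the cell type markers named beyond these were added after values were seen. Of list symbols newer than the table, 3 were matched through RefSeq synonyms.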

Additional observations from a re-analysis of the deposited data

How the results depend on the processing

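Between mTOR Tg and WT, edgeR called 0 genes under each scaling, filter, legacy, robust and length and GC setting and at an adjusted p under 0.1, and limma-voom also called 0. DESeq2 called 12 genes. With the replicate number as a block (replicate block) edgeR called 37 genes and 0 of the 10 described here. The labels give no basis for pairing, and the deviations of same-numbered libraries correlated at 0.0708 across genes. With 1 library left out the count ran from 8 to 6273 genes, and from 0 to 3 of the 10 (Esrp1, Esrp2 and Zeb1 without mTOR Tg replicate 2, Tagln without mTOR Tg replicate 1). Of 146 single-gene fold changes under an alternative, 139 kept direction and side of the threshold, 4 passed it and 3 turned. These 3 came from leaving out 1 library, where Vim ran from -0.44 to 0.25, Fn1 from -0.0401 to 0.293 and Zeb2 from -2.35 to 0.24. The cause was not tested. Zeb1, Zeb2, Lox and Loxl2 did not pass the stricter filter of 50 counts in 2 libraries. Depth limits Zeb2, Lox and Loxl2 most, at 2 to 43 counts a library.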

Other observations

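The genes in this paragraph belong to the lists above but are named here because of their values, after these were seen. Itga8, an integrin of alveolar myofibroblasts, had 2 and 4 counts in mTOR Tg and 21 and 11 counts in WT. It comes from the fibroblast list, where 9 of 14 tested genes had a positive log2 fold change and 5 a negative one. Only 1 of those 14, Itga8 itself, was lower in both mTOR Tg libraries than in both WT libraries. Rgs5, a pericyte gene, had 0 and 0 counts in mTOR Tg and 3 and 3 counts in WT. Other pericyte genes too rare to test did not share this direction, since Kcnj8 had 9 and 9 counts in mTOR Tg and 6 and 4 counts in WT, and Pdgfrb had 8 and 13 counts in mTOR Tg and 8 and 8 counts in WT. The SRF target Myl9 was at 5.50 and 1.05 normalised CPM in mTOR Tg and 2.25 and 2.02 CPM in WT, so its mTOR Tg libraries lay on either side of WT.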
